A study of Homo sapiens with 6 samples.

Results

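The mitochondrial ribosomal protein genes were taken as the protein-coding rows of the gene expression table whose symbol starts with MRPL or MRPS followed by a digit. This gave 78 genes of the 58735 in the table, spread over 21 chromosomes. Hep-G2, an established human liver cancer line, carried either a short hairpin RNA that targets CLGN (sh-CLGN, genotype label CLGN knock down, n = 3 libraries) or a control hairpin (sh-NC, genotype label WT, n = 3 libraries). Calmegin, the product of CLGN, helps proteins to fold in the endoplasmic reticulum. Both hairpins were delivered by lentivirus and the cells were selected with puromycin, with 1 hairpin sequence per group, so that effects of CLGN loss and of that particular hairpin cannot be told apart. All 6 libraries carry the same batch label, 0DAY, and nothing in the labels says that the 3 libraries of a group came from separate cultures. P-values therefore measure the spread between these libraries, which may be technical.

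Mitochondria keep their own ribosome, the mitoribosome, which makes the few respiratory chain subunits still encoded by the mitochondrial genome. Its RNAs are transcribed from mitochondrial DNA, while all of its proteins are encoded in the nucleus, translated in the cytosol and imported. MRPL names mark proteins of the large subunit, where peptide bonds form, and MRPS names mark proteins of the small subunit, which binds the messenger RNA. Some have bacterial homologues and others were added during the evolution of mitochondria. The names are not a perfect guide, since the proteins of MRPS30 and MRPS18A sit in the large subunit and that of MRPS36 belongs to the 2-oxoglutarate dehydrogenase complex. The genes are expressed in nearly all cells, and their promoters are known for binding sites of the regulators of nuclear genes for mitochondria, among them NRF1 and the ETS factor GABP.

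The promoters of several members are shown because they carry the letters those regulators read. RefSeq windows on GRCh38.p14, running from 250 bases before to 50 bases after the start of transcription, matched 69 of the 78 members. The ETS core CCGGAAG, on either strand, was found in 29 of these 69 windows (42.0%), against 10.7% of all 27305 windows and 20.7% of the 8806 windows of protein-coding genes tested here. It lay at a median of 22 bases before the start. In each sequence below the capitals mark the core, which reads CTTCCGG where it lies on the other strand, and the number of bases before the start is given after the position. MRPS34 holds 3 copies, of which 1 is marked, and MRPL51 holds another copy at -119, which is not marked.
MRPS23 (chr17:57850042-57850068, minus strand, -14): ggagcagccgCTTCCGGttccggtagc
MRPS34 (chr16:1773147-1773173, minus strand, -29): acaccggcctCTTCCGGtgacttccgg
MRPS26 (chr20:3046005-3046031, plus strand, -37): ccccgcgccgCTTCCGGggcacggtgg
MRPL51 (chr12:6493350-6493376, minus strand, -104): ggcaggcggaCCGGAAGcactgaggcg
MRPL47 (chr3:179604661-179604687, minus strand, -39): gcttgagacgCCGGAAGtgacgctatc
MRPL33 (chr2:27771701-27771727, plus strand, -8): gggccgtgccCCGGAAGcagttgttgt

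A second short motif was more concentrated still among the members. The YY1 core AAGATGG, on either strand, occurred in 23 of 69 windows (33.3%), against 6.06% of all windows and 7.95% of those of protein-coding genes tested. In 16 of the 23 it lay after the start of transcription, and the motif contains the letters ATG, so it can overlap a start codon. The copies of 5 members are shown with the core in capitals and the distance from the start.
MRPL11 (chr11:66438808-66438834, minus strand, +24): cctctggcccAAGATGGtggcgcccag
MRPS18B (chr6:30617853-30617879, plus strand, +23): ggcgtacgtcAAGATGGcggcgtctgt
MRPL46 (chr15:88467364-88467390, minus strand, +8): gggagaacgaAAGATGGcggcgcccgt
MRPL50 (chr9:101398579-101398605, minus strand, +23): gatctcatcgAAGATGGcggcgcgatc
MRPL45 (chr17:38297171-38297197, plus strand, +13): ttgcgggaacAAGATGGcagcccccat

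The palindromic NRF1 core, searched with its free central base, was found in 8 of 69 windows (11.6%), against 6.28% of all windows and 12.5% of those of protein-coding genes tested, so the members did not stand above expressed coding genes. The E-box CACGTG, read by MYC and related factors, was in 8.70% of member windows and 10.4% of those of protein-coding genes tested. Of the 8 members with an NRF1 core, MRPL36 and MRPL45 are shown because both were higher in sh-CLGN, as described below.
MRPL36 (chr5:1799928-1799957, minus strand, -110): tcgcactccaGCGCCTGCGCactcgctgct
MRPL45 (chr17:38296969-38296998, plus strand, -189): ttgtctccctGCGCACGCGCggccgtactc

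Sequencing gave 14955816 to 16244639 reads per library on annotated genes, and levels are given as FPKM, fragments per kilobase of gene scaled to library size, a unit already corrected for gene length. Libraries of the same group correlated at 0.988 to 0.992 on the log scale and libraries of different groups at 0.937 to 0.945. The targeted gene stood at 24.1, 21.0 and 26.1 FPKM in sh-NC and at 9.48, 8.88 and 8.60 FPKM in sh-CLGN, a log2 fold change of -1.31 (SE 0.081, adjusted p = 8.35e-06). All 9 hepatocyte markers were expressed in both groups, and the list moved in both directions, with 5 lower and 3 higher in sh-CLGN. ALB stood at 53.6% (-0.90), TF at 32.2% (-1.62), APOB at 80.0%, SERPINA1 at 79.3% and HNF4A at 81.1% of their sh-NC means, while AFP (0.50), TTR (0.58) and FGB (0.72) were higher and APOA1 did not pass (0.15, adjusted p = 0.0781). Of 9 fibroblast markers, 5 were tested and all 5 were higher in sh-CLGN, with a summed level of 6.70 to 8.19 FPKM in sh-NC and 47.4 to 48.99 FPKM in sh-CLGN, most of it COL1A2, while FAP and POSTN were at 0 in every library and DCN at or near 0. Whether these marker changes have a part in the results on the members was not tested. Fold changes are sh-CLGN minus sh-NC on the log2(FPKM + 1) scale, which understates the change of genes with low values, and adjusted p-values come from limma with Benjamini-Hochberg adjustment over all 13074 genes that reached 1 FPKM in 3 libraries or more.

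Most mitochondrial ribosomal protein genes were modestly lower in sh-CLGN and a few were clearly higher. Of the 77 members that passed the filter, 45 (58.4%) fell and 6 (7.79%) rose at the 0.05 threshold for adjusted p, and 26 did not pass the test. Over all genes tested, 65.8% were called, 39% lower and 26.7% higher. The median member had a log2 fold change of -0.25, against -0.077 for all genes tested and -0.12 for protein-coding ones. The changes were small for most members, with 61 of the 77 between -0.5 and 0.5. Only MRPL33 among those that rose and MRPL37 among those that fell also reached an absolute log2 fold change of 1, where 3.09% of all genes rose and 3.19% fell by as much. The libraries of the groups did not overlap for 50 of the 77 members, 6 higher and 44 lower, against 70.2% of all genes. In bulk RNA, fewer cells that express a gene and less of its RNA per cell cannot be told apart.

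**Figure D1:**
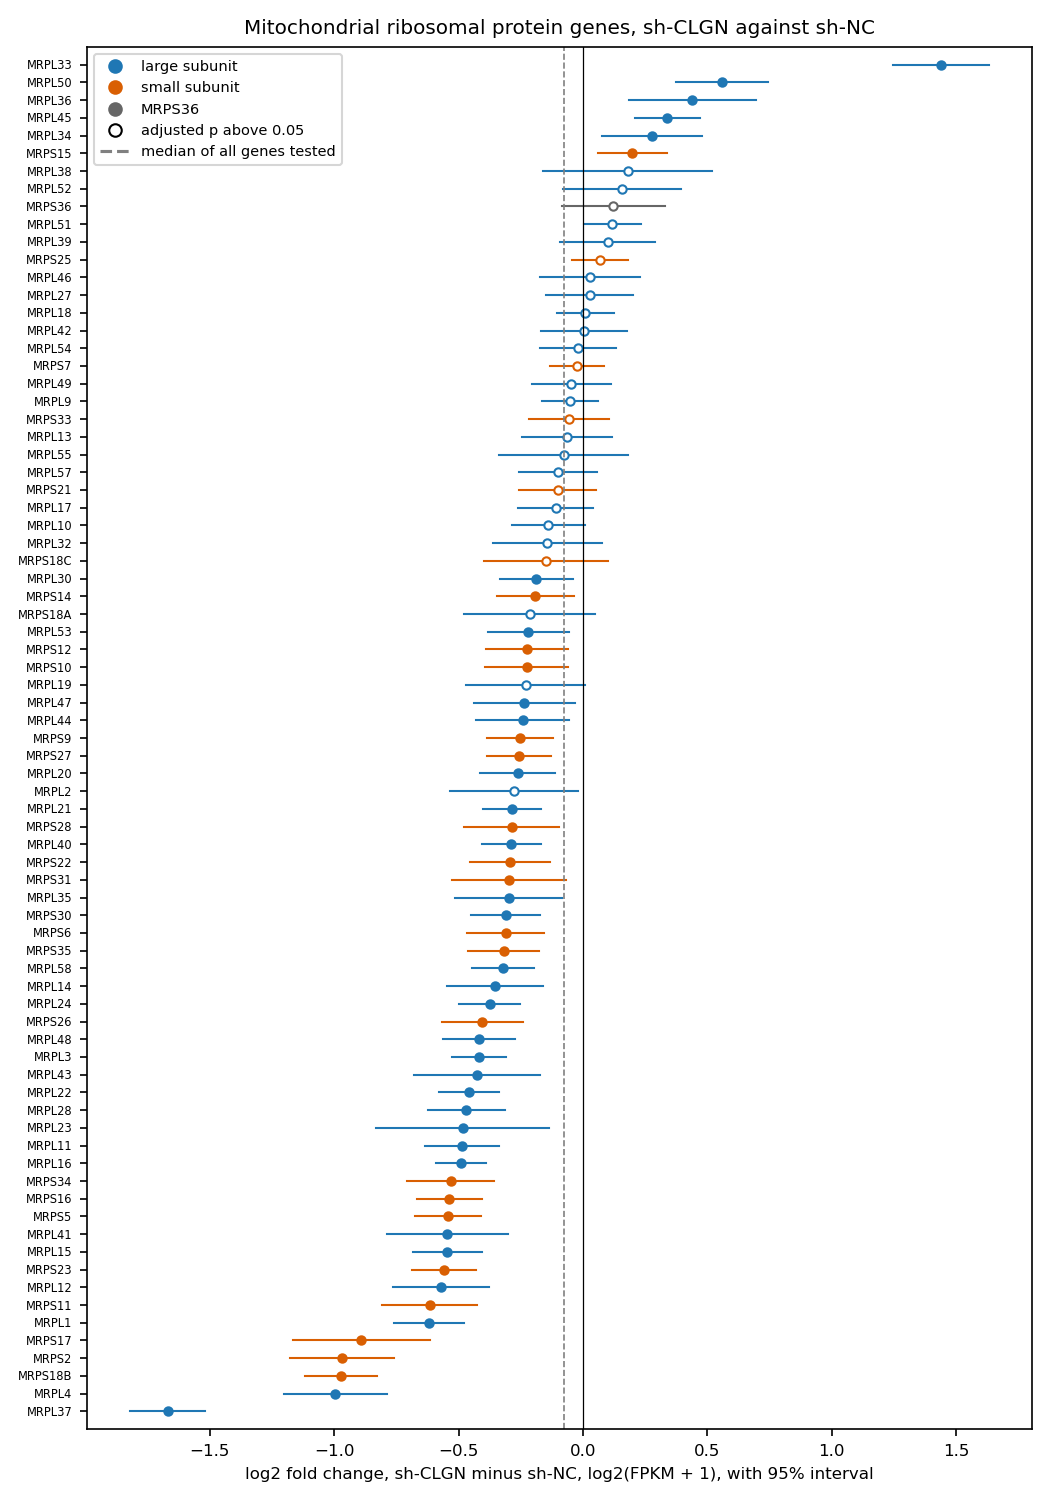
Log2 fold change of each of the 77 tested members (vertical axis, one gene per line) with its unadjusted 95% confidence interval (horizontal axis, sh-CLGN minus sh-NC on the log2(FPKM + 1) scale), blue for large subunit proteins, orange for small subunit proteins and grey for MRPS36. Filled points passed an adjusted p of 0.05, and the dashed line is the median of all genes tested (-0.077). MRPL33 at the top and MRPL37 at the bottom stand apart from the rest.

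How many members rose and fell depended on how the libraries were put on a common scale. The deposited values had been divided by library sizes that were 0.933 to 0.953 of the read totals in sh-NC and 1.07 to 1.08 of them in sh-CLGN. When the same reads were scaled by the read totals, 16 members (20.8%) were higher and 22 (28.6%) lower, beside 37.9% and 26.2% of all genes. With TPM, in which each library sums to the same total, 10 were higher and 30 lower, beside 32.8% and 30.0% of all genes. After quantile normalization 15 (19.5%) were higher and 26 (33.8%) lower, beside 30.2% and 32.5% of all genes, so the share of members that fell was close to that of all genes. After correction for GC content 15 (19.5%) were higher and 40 (51.9%) lower, beside 32.6% and 34.2%. The median over all genes moved from -0.077 to 0.083 with read totals, and the members' median moved with it from -0.25 to -0.075. The members lay below the median of all genes by 0.16 to 0.18 with the deposited scale, TPM, read totals and GC correction, and by 0.04 after quantile normalization. A set of 19 members was lower in all 18 settings examined, including those that leave out a library, namely MRPL1, MRPL3, MRPL4, MRPL11, MRPL12, MRPL15, MRPL16, MRPL22, MRPL28, MRPL37, MRPL48, MRPS2, MRPS5, MRPS11, MRPS16, MRPS17, MRPS18B, MRPS23 and MRPS34. The 4 genes MRPL33, MRPL36, MRPL45 and MRPL50 were higher in all of them.

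**Figure D2:**
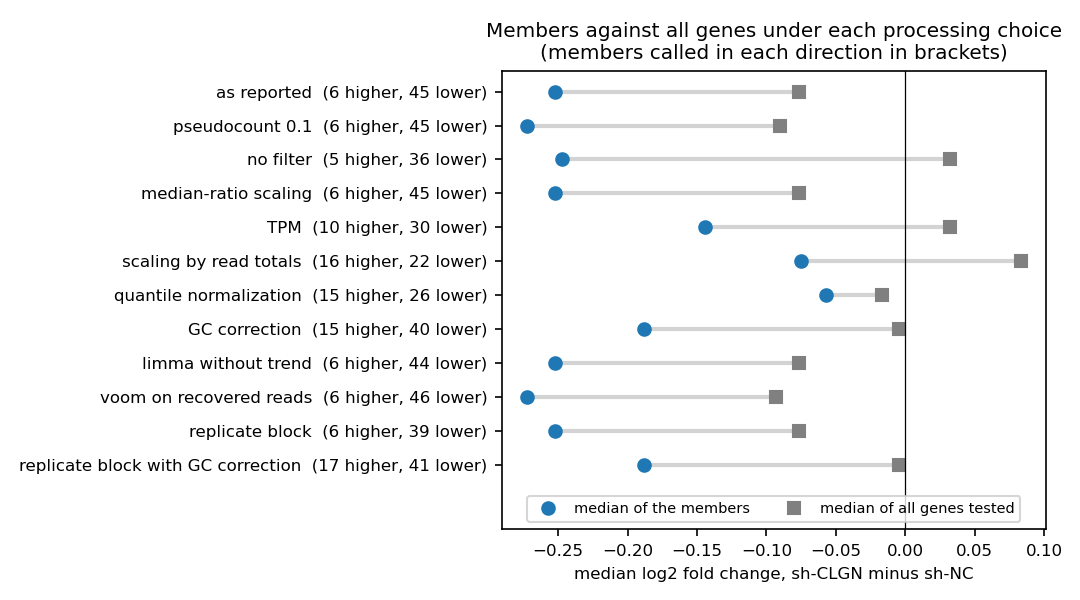
Median log2 fold change (horizontal axis, sh-CLGN minus sh-NC) of the members (circles) and of all genes tested (squares) under each processing choice (vertical axis), with the numbers of members called higher and lower in brackets. The medians move together under most choices, and the members lie to the left of all genes in each, least so after quantile normalization.

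MRPL37 changed most. It encodes a mitochondria-specific protein of the large subunit and lies at chr1:54184041-54225464 on the plus strand. Its level was 62.7, 55.8 and 53.6 FPKM in sh-NC and 17.7, 17.4 and 16.8 FPKM in sh-CLGN. The lowest sh-NC library was thus well above the highest sh-CLGN library, and the sh-CLGN libraries were nearly equal. The mean level in sh-CLGN was 30.2% of that in sh-NC (log2 fold change -1.67, SE 0.065, adjusted p = 1.63e-06). This rests on 2076 to 2231 reads in each sh-NC library and 692 to 767 in each sh-CLGN library. Exons of MRPL37 share 33 bases with SSBP3 and 140 bases with CYB5RL, both on the opposite strand, where log2 fold changes were 0.03 and 0.07. The bases before its start of transcription are shown, and of the motifs above its window held only an E-box, which lies outside this stretch.
MRPL37 (chr1:54200074-54200166, plus strand): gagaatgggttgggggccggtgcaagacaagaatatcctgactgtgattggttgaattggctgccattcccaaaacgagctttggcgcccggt

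MRPL33 had the largest rise among the members. It encodes a small protein of the large subunit with a bacterial homologue, bL33, and its annotation spans chr2:27771717-27988087. Levels were 4.47, 4.76 and 4.75 FPKM in sh-NC against 16.3, 12.96 and 13.96 in sh-CLGN, so every sh-CLGN library was far above every sh-NC library. The mean was 3.09 times that of sh-NC (log2 fold change 1.44, SE 0.083, adjusted p = 6.21e-06), from 96 to 113 reads per sh-NC library and 327 to 426 per sh-CLGN library. MRPL33 shares 324 exon bases, 21.1% of its own, with BABAM2 on the same strand, so reads there cannot be assigned with certainty. BABAM2 itself had a log2 fold change of -0.05 (adjusted p = 0.604). The stretch before the start of MRPL33 ends inside the ETS core printed above, whose final base is not part of it.
MRPL33 (chr2:27771597-27771716, plus strand): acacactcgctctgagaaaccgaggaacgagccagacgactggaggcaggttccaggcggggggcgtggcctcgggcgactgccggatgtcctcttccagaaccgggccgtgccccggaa

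The next 4 members stood at about the same fraction of their control level. MRPL4, whose bacterial homologue lines the tunnel through which the new peptide leaves, had 19.1, 16.5 and 14.8 FPKM in sh-NC and 7.63, 7.73 and 8.29 FPKM in sh-CLGN, a mean of 47.0% of sh-NC (log2 fold change -0.995, SE 0.089, adjusted p = 4.35e-05). MRPS18B, a small subunit protein counted here with the mitochondria-specific ones, had 43.0, 39.5 and 37.8 FPKM against 20.8, 18.9 and 20.0 FPKM, 49.7% of sh-NC (-0.97, SE 0.0623, adjusted p = 9.65e-06). MRPS2, which has a bacterial homologue and sits in the body of the small subunit, had 33.9, 33.2 and 26.6 FPKM against 15.3, 15.0 and 15.8 FPKM, 49.3% of sh-NC (-0.97, SE 0.0898, adjusted p = 5.22e-05). In each of these 3 genes all sh-NC libraries were above all sh-CLGN libraries.

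MRPS17, a protein that contacts the small subunit rRNA, was expressed at a lower level, with 6.61, 6.12 and 6.05 FPKM in sh-NC and 3.39, 3.25 and 2.21 FPKM in sh-CLGN, or 47.1% of sh-NC (log2 fold change -0.89, SE 0.119, adjusted p = 3.32e-04). The groups did not overlap, but the third sh-CLGN library stood below the other two. MRPS17 shares 112 exon bases with NIPSNAP2 and 471 with a readthrough gene, both on its own strand. Per library NIPSNAP2 had 643 to 1160 reads and the readthrough gene 0, against 77 to 202 for MRPS17. How reads on the shared bases were assigned is not given, so their part in this fall was not tested. With a pseudocount of 0.1 in place of 1, these 4 genes reached an absolute log2 fold change of 1 together with MRPL37 and MRPL33.

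**Figure D3:**
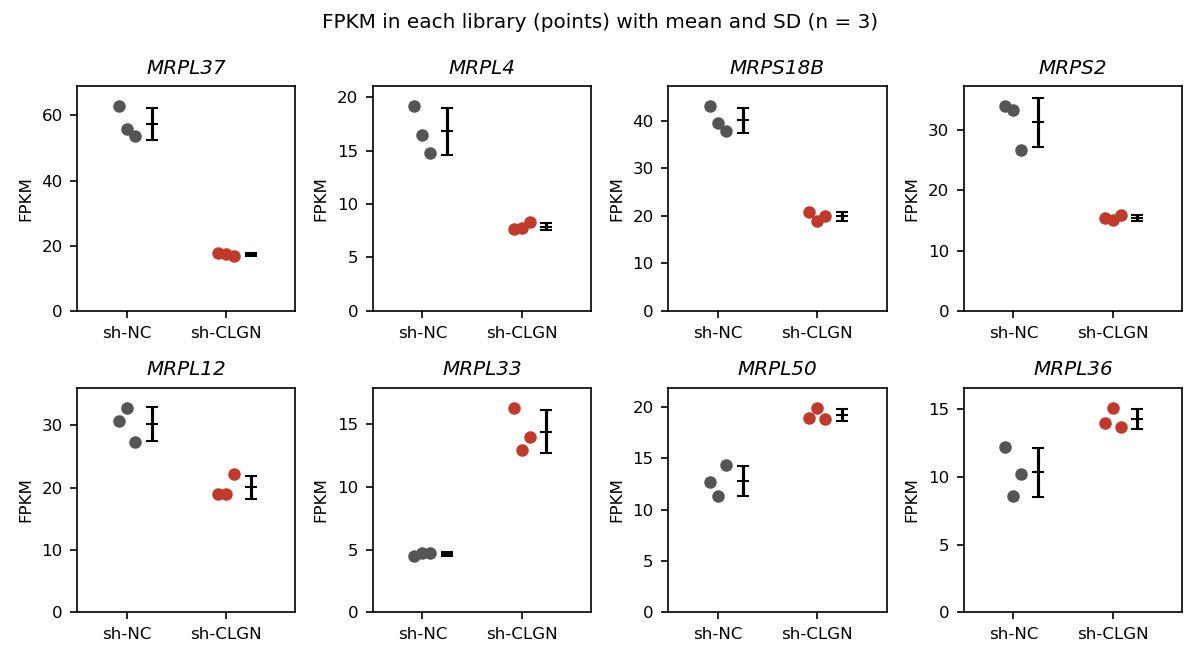
FPKM (vertical axes, each from 0) of 8 members in the 3 sh-NC libraries (grey) and 3 sh-CLGN libraries (red), with the mean and SD (n = 3) beside the points. MRPL37, MRPL4, MRPS18B, MRPS2 and MRPL12 were lower and MRPL33, MRPL50 and MRPL36 higher in sh-CLGN, with no overlap between the groups.

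Among the other members with the largest falls, log2 fold changes ran from -0.62 to -0.54. MRPL1, a large subunit protein at the site where the empty tRNA leaves, had 11.0, 11.1 and 11.2 FPKM in sh-NC and 7.22, 7.16 and 6.34 FPKM in sh-CLGN (-0.62, SE 0.0606, adjusted p = 6.75e-05). MRPS23 had 13.3, 12.96 and 12.4 FPKM against 8.73, 8.56 and 7.99 FPKM (-0.56, SE 0.0556, adjusted p = 7.24e-05), and MRPS5, whose bacterial homologue lies where messenger RNA enters, had 15.5, 14.3 and 14.1 FPKM against 9.72, 9.34 and 10.1 FPKM (-0.54, SE 0.0574, adjusted p = 9.81e-05). The sh-NC libraries of these genes were close to each other and above every sh-CLGN library. MRPL15 reached 67.3% and MRPL41 67.5% of their sh-NC means, and MRPL41, the member with the highest GC content (71.9%), lost its call when GC content was corrected.

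Besides MRPL33, the genes that rose in every setting changed less. MRPL50, a mitochondria-specific large subunit protein, had 12.65, 11.35 and 14.3 FPKM in sh-NC and 18.9, 19.9 and 18.9 FPKM in sh-CLGN (log2 fold change 0.56, SE 0.0796, adjusted p = 4.69e-04). MRPL36, the homologue of bacterial bL36, had 12.2, 8.55 and 10.2 FPKM against 13.95, 15.05 and 13.6 FPKM (0.44, SE 0.11, adjusted p = 0.00837). MRPL45, which lies at the tunnel exit where the mitoribosome meets the inner membrane, had 33.3, 32.9 and 35.3 FPKM against 46.1, 41.6 and 41.8 FPKM (0.34, SE 0.0568, adjusted p = 0.0011). In all 3 the sh-CLGN libraries were the higher ones without overlap, and the spread within sh-NC was widest for MRPL36. MRPS15 was the only small subunit gene that rose on the deposited scale (25.5, 25.2 and 23.0 against 29.9, 27.4 and 27.7 FPKM, 0.20, SE 0.0595, adjusted p = 0.0186), and it no longer passed without sh-CLGN replicate 1. MRPL34 was called higher at 0.28 (adjusted p = 0.023), but its libraries overlapped, as did those of MRPL23, which was called lower (-0.48, adjusted p = 0.0215).

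By subunit, 26 of 51 large subunit genes (51.0%) were lower and 5 (9.80%) higher, with a median log2 fold change of -0.23. Of 25 tested small subunit genes, 19 (76%) were lower and 1 (4%) higher, with a median of -0.29. Among all genes tested, 39% were lower and 26.7% higher, with a median of -0.077. The summed level of the large subunit genes was 1280 ± 55.7 FPKM in sh-NC and 1068 ± 28.9 FPKM in sh-CLGN (SD, n = 3 each), or 83.4%. That of the small subunit genes was 620 ± 20.0 and 471 ± 10.9 FPKM, or 76.1%. The ratio of the sums, which no single scaling factor per library can change, was 2.10, 2.02 and 2.07 in sh-NC against 2.27, 2.29 and 2.24 in sh-CLGN. Every sh-CLGN library thus had the higher ratio of large to small subunit RNA. Both medians stayed negative under TPM, read totals, quantile normalization and GC correction, from -0.13 to -0.02 for the large and from -0.30 to -0.13 for the small subunit. The medians of all genes were 0.032, 0.083, -0.016 and -0.0042 in these settings. After quantile normalization the large subunit median (-0.017) was thus at the level of all genes.

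Within the large subunit, proteins with a bacterial homologue had a median of -0.27 (17 lower, 56.7%, and 3 higher of 30). Mitochondria-specific ones had -0.10 (9 lower, 42.9%, and 2 higher of 21). Among all genes tested, 39% were lower and 26.7% higher, with a median of -0.077, so the fall of the mitochondria-specific ones was near that of all genes. Their median turned positive with TPM (0.021), read totals (0.084) and GC correction (0.0096), where all genes had 0.032, 0.083 and -0.0042. In the small subunit the corresponding medians were -0.25 (11 lower, 73.3%, and 1 higher of 15) and -0.31 (8 lower, 80%, and 0 higher of 10). The stalk, the flexible arm that recruits translation factors, is made of MRPL10, MRPL11 and MRPL12. MRPL11 had 142, 135 and 122 FPKM against 97.7, 91.8 and 93.7 FPKM (-0.49, SE 0.0645, adjusted p = 3.26e-04), and MRPL12 had 30.7, 32.8 and 27.3 FPKM against 19.0, 19.05 and 22.1 FPKM (-0.57, SE 0.0837, adjusted p = 5.45e-04). Both were separated between the groups, although 68.2% of the exon bases of MRPL12 are shared with another annotated gene that had 0 reads. MRPL10 gave 25.9, 26.0 and 23.6 FPKM against 23.6, 21.2 and 23.4 FPKM (-0.14, adjusted p = 0.0835), with overlapping groups and a sign that turned positive with read totals, quantile normalization and GC correction.

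The genes of the mRNA path and decoding region of the small subunit had a median of -0.54, with 4 of 5 lower (80%). With read totals, quantile normalization and GC correction, 3 of these were lower and 1 higher each time, with medians of -0.36, -0.38 and -0.43. Among all genes tested, 39% were lower on the deposited scale and 26.7% higher. The genes at the tunnel exit had a median of -0.24, with 5 of 8 lower (62.5%) and MRPL45 higher, and after quantile normalization this median was 0.00082. The central protuberance, where the subunits meet the tRNAs, had a median of -0.08 with 3 of 7 lower (42.9%), at the level of all genes. Its median was positive with TPM (0.045), read totals (0.11) and GC correction (0.018). The paralogs MRPS18A, MRPS18B and MRPS18C, 3 descendants of 1 bacterial protein that occupy different places in the mitoribosome, did not all pass the test. In the lists above MRPS18A and MRPS18B were counted as mitochondria-specific and MRPS18C among those with a bacterial homologue. Beside MRPS18B, MRPS18A had 18.5, 13.4 and 15.15 FPKM against 13.04, 12.2 and 14.7 FPKM (-0.21, adjusted p = 0.132) and MRPS18C had 2.86, 2.60 and 3.65 FPKM against 2.82, 2.695 and 2.35 FPKM (-0.15, adjusted p = 0.252). The libraries of both overlapped, and the differences between the paralogs' fold changes were not tested.

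Levels varied 164-fold among tested members in sh-NC around a median of 17.2 FPKM, although their proteins are present once or a few times in each mitoribosome. The highest were MRPL11 at 133 ± 10.5, MRPS34 at 94.0 ± 9.52, MRPS26 at 75.7 ± 6.46, MRPS35 at 72.3 ± 4.74 and MRPL51 at 62.7 ± 2.10 FPKM (SD, n = 3). The first 4 fell, by 0.49, 0.53, 0.40 and 0.32 on the log2 scale. MRPL51 did not pass (0.12, adjusted p = 0.0655), although its sh-CLGN libraries were all above its sh-NC libraries. At the low end were MRPL38 at 0.812 ± 0.358, MRPL46 at 2.19 ± 0.267, MRPL53 at 2.33 ± 0.108 and MRPS18C at 3.04 ± 0.547 FPKM.

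MRPL38, MRPL53 and MRPS18C share 37.5%, 45.2% and 40.2% of their exon bases with another gene, and how reads on those bases were assigned is not given in the sources used here. MRPS24 was left out by the filter, with 0, 5 and 6 reads in sh-NC against 0, 4 and 6 in sh-CLGN. A readthrough gene, URGCP-MRPS24, shares 606 of its exon bases (23.2%) and had 0 reads in every library. In all, 41 members share exon bases with some other gene. The last member inside the threshold was MRPL47 (-0.24, adjusted p = 0.0441) and the first outside was MRPL2 (-0.28, adjusted p = 0.058). The 26 members that did not pass had unadjusted 95% intervals of differing width, for example -0.10 to 0.12 for MRPL18 and -0.16 to 0.52 for MRPL38.

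Several members share a start region with a neighbour that is read in the opposite direction. MRPL46 and MRPS11 are such a pair, with 33 bases between the outermost starts that GENCODE annotates, and the stretch between them is shown on the strand of MRPL46.
MRPL46 to MRPS11 (chr15:88467420-88467452, minus strand): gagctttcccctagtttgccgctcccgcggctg
MRPS11 had 9.88, 8.21 and 8.86 FPKM in sh-NC and 5.88, 5.67 and 4.99 FPKM in sh-CLGN (-0.61, SE 0.0824, adjusted p = 3.44e-04), while MRPL46 had 2.36, 1.885 and 2.33 against 2.31, 2.34 and 2.10 FPKM (0.03, SE 0.0869, adjusted p = 0.789). MRPL36, which rose, has as its neighbour NDUFS6, a complex I subunit that fell (-0.35, adjusted p = 0.0464), and the RefSeq start of MRPL36 used for its motifs lies further from NDUFS6 than its outermost GENCODE start. MRPL50 and its neighbour ZNF189 were both higher (0.56 and 0.70), and MRPL43 and TWNK, the mitochondrial DNA helicase, were both lower (-0.43 and -0.96). MRPL43, with 499 to 700 reads, shares 149 exon bases with TWNK and 1170 (32.7%) with SEMA4G, both on the opposite strand. SEMA4G had 866 to 1863 reads. Because the strand setting is not given, reads of these genes may have been counted for each other. MRPS34 fell while its neighbour EME2 was higher (0.27, adjusted p = 0.0404). Whether the members of such pairs differed from each other was not tested.

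The share of windows with a motif differed between members that fell and rose, with only 6 windows of the latter and no test made. The ETS core was present in 19 of 40 windows of members that fell (47.5%), in 1 of 6 of those that rose, and in 9 of 22 of those that did not pass (40.9%). The YY1 core was in 10 of 40, 3 of 6 and 9 of 22 windows, the NRF1 core in 3 of 40, 2 of 6 and 3 of 22, and the E-box in 2 of 40, 2 of 6 and 2 of 22. Among the regulators themselves, NRF1 was lower in sh-CLGN, with 7.98, 8.19 and 7.54 FPKM against 4.46, 3.59 and 3.65 FPKM (-0.86, SE 0.0803, adjusted p = 5.23e-05). The subunits of GABP moved apart, GABPA from 3.72, 3.20 and 3.9998 to 5.77, 5.89 and 6.01 FPKM (0.57, adjusted p = 3.23e-04) and GABPB1 from 7.54, 7.01 and 8.53 to 5.84, 6.20 and 6.30 FPKM (-0.29, adjusted p = 0.0101). The libraries of the groups did not overlap in any of these 3 genes.

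MYC (-0.70), ESRRA (-0.69), SP1 (-0.33) and the coactivators PPARGC1B (-0.34) and PPRC1 (-0.28) were also lower. On the deposited scale 7 of 11 regulators tested (63.6%) fell and 1 (9.09%) rose, beside 39% and 26.7% of all genes. With TPM 5 were lower and 3 higher, with read totals 4 and 4, with quantile normalization 5 and 4, and with GC correction 5 and 2. Of all genes, 30.0% were lower and 32.8% higher with TPM, and 26.2% and 37.9% with read totals. With quantile normalization these shares were 32.5% and 30.2%, and with GC correction 34.2% and 32.6%. The calls of GABPB1, SP1, PPRC1 and PPARGC1B were each lost in at least 1 of these settings. YY1 had a log2 fold change of 0.05 (adjusted p = 0.329) and did not pass on the deposited scale, but it did with TPM, read totals, quantile normalization and GC correction. TFAM, which packages mitochondrial DNA, had 0.12 (adjusted p = 0.11), and TFB2M, which starts mitochondrial transcription, 0.02 (adjusted p = 0.722). PPARGC1A was under the filter, at 0.321 to 0.462 FPKM in sh-NC and 0.808 to 0.906 FPKM in sh-CLGN.

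Because CLGN loss and effects of the hairpin sequence cannot be told apart with 1 hairpin, 3′ UTRs were searched for heptamers that pair with positions 2 to 8 or 3 to 9 of the guide strand, derived from the target site in the study's methods. Such a site was found in 7 of 77 members (9.09%) and in 18% of 10899 tested genes with an annotated 3′ UTR. The 2 shares are not matched for length, since the median gene length was 2539 bases for members and 4422 for all genes tested. How the hairpin is processed is not stated, and sites outside 3′ UTRs were not searched, so an effect of the hairpin on the members was not tested. None of MRPL37, MRPL4, MRPS18B, MRPS2, MRPS17 or MRPL33 holds one. Sites of 4 members are printed with the heptamer in capitals and its position.
MRPL3 (chr3:131462541-131462547, minus strand): ttagaaaaatTACCACAttaaatatat
MRPL27 (chr17:50369874-50369880, minus strand): atttcttcctTACCACAtccctgtaag
MRPL42 (chr12:93512926-93512932, plus strand): attttgaaaaTACCACAccacttgctt
MRPL53 (chr2:74471983-74471989, minus strand): aaaaccctgcTACCACAatgtttctgg
Log2 fold changes of the 7 were -0.42 for MRPL3, 0.03 for MRPL27, 0.0047 for MRPL42, -0.22 for MRPL53, 0.07 for MRPS25, -0.26 for MRPS27 and -0.29 for MRPS28. Those of MRPL3, MRPL53, MRPS27 and MRPS28 passed the test, and the other 3 did not.

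The other genes of mitochondrial protein synthesis did not move as one. Of the 5 genes of mitoribosomal proteins that carry other names, 4 fell on the deposited scale, 3 with GC correction, 2 with TPM and 1, DAP3, with read totals and with quantile normalization. DAP3, which sits in the head of the small subunit, had 60.4, 61.7 and 62.2 FPKM against 40.03, 39.9 and 37.8 FPKM (-0.63, SE 0.0452, adjusted p = 1.51e-05), AURKAIP1 had -0.39, CHCHD1 -0.28 and PTCD3 -0.25. GADD45GIP1 had -0.14 (adjusted p = 0.108) and turned positive with read totals, quantile normalization and GC correction. The sh-CLGN libraries of DAP3 were all far below those of sh-NC.

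Of 28 assembly factors, 12 (42.9%) fell, near the share of all genes, and 2 (7.14%) rose, with a median of -0.13 that became 0.03 with read totals. ERAL1, the chaperone of the small subunit rRNA, fell by 0.82 (adjusted p = 9.99e-06), the helicase DDX28 by 0.86 and the rRNA methyltransferase MRM2 by 0.58. RPUSD4, a pseudouridine synthase that acts on the large subunit rRNA, rose from 3.12, 2.89 and 3.09 to 8.76, 7.90 and 7.87 FPKM (1.19, SE 0.0645, adjusted p = 5.2e-06), and METTL15, a methyltransferase of the small subunit rRNA, rose by 0.61. These factors therefore included changes in both directions at least as large as those of most members.

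Of 16 translation factors, 5 (31.25%) were lower and 4 (25%) higher, beside 39% and 26.7% of all genes, with a median of -0.058 that became 0.054 with TPM and 0.098 with read totals. The elongation factor TUFM fell from 129, 128 and 113 to 76.8, 74.1 and 76.8 FPKM (-0.69, adjusted p = 4.05e-05), and TACO1 (-0.71) and the formyltransferase MTFMT (-0.75) fell as well. LRPPRC, which stabilises mitochondrial mRNAs, was higher at 25.2, 24.5 and 24.9 FPKM against 15.3, 15.8 and 17.6 FPKM (0.59, adjusted p = 8.23e-05), as were the initiation factor MTIF2 (0.27) and the release factor MTRF1 (0.38). Of 17 mitochondrial tRNA synthetases, 12 (70.6%) fell on the deposited scale, among them LARS2 (-0.75) and MARS2 (-0.56), and TARS2 rose (0.20, adjusted p = 0.0457). TPM gave 9 lower and 2 higher, read totals and quantile normalization 9 and 3 each, and GC correction 10 and 1. TARS2 lost its call without the filter, without the trend, with the replicate number as a block and when any library but sh-NC replicate 1 was left out.

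The RNA parts of the mitoribosome were higher in sh-CLGN, while on the deposited scale 45 of the 77 protein genes (58.4%) were lower. That count fell to 30 (39.0%) with TPM and 22 (28.6%) with read totals. Of all genes, 39% were lower on the deposited scale, 30.0% with TPM and 26.2% with read totals. With read totals the share of protein genes was thus near that of all genes. MT-RNR1, the small subunit rRNA, had 989, 793 and 871 FPKM in sh-NC and 1636, 1504 and 1356 FPKM in sh-CLGN (0.76, SE 0.0986, adjusted p = 2.85e-04). MT-RNR2, the large subunit rRNA, had 3956, 3402 and 3987 FPKM against 5108, 4886 and 4623 FPKM (0.37, SE 0.0824, adjusted p = 0.00488), and lost its call after quantile normalization and without the filter. All sh-CLGN libraries were above all sh-NC libraries for both. Of the 13 mitochondrial mRNAs, 8 (61.5%) rose and 0 fell, beside 26.7% and 39% of all genes, with a median of 0.49. Reads on the mitochondrial genome made up 3.25% to 4.02% of reads in sh-NC, compared with 5.49% to 5.80% in sh-CLGN. How rRNA was depleted or mRNA selected is not given in the sources used here, and the levels of the rRNAs may not be the amounts in the cell.

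**Figure D4:**
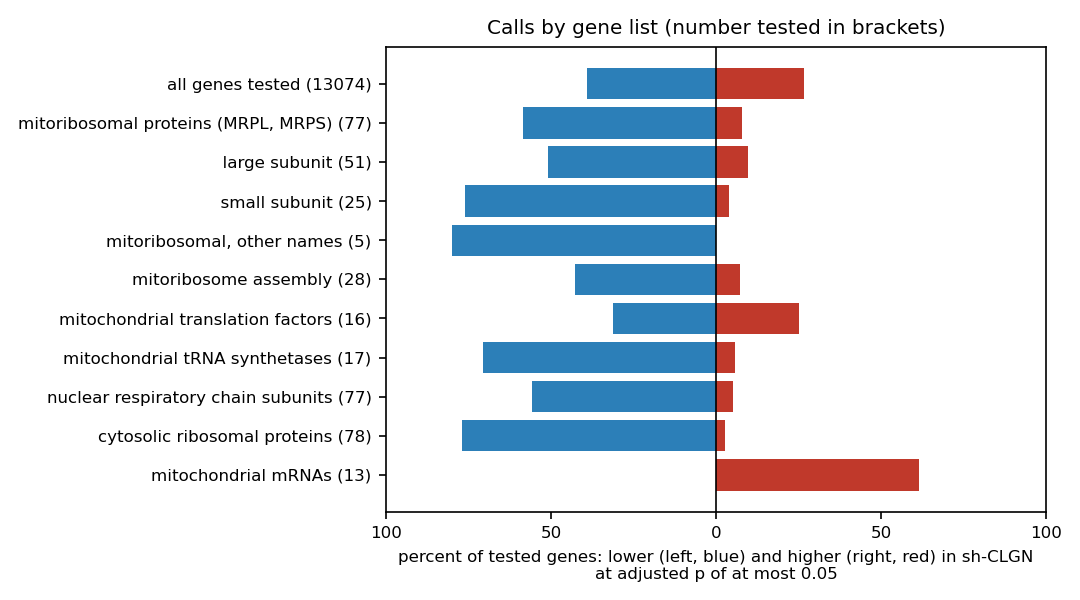
Share of tested genes called lower (blue, to the left) and higher (red, to the right) in sh-CLGN at an adjusted p of at most 0.05 (horizontal axis, percent) for all genes and each gene list (vertical axis, number tested in brackets), on the deposited scale. The members, at 58.4% lower, lie above the 39% of all genes and below the cytosolic ribosomal proteins, and the mitochondrial mRNAs have no lower call.

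The nearest comparisons among large protein complexes were the ribosome of the cytosol and the respiratory chain. Of 78 tested cytosolic ribosomal protein genes, 60 fell and 2 rose, with a median of -0.39 and a summed level in sh-CLGN of 73.4% of that in sh-NC, against 81.2% for the members. Of 77 tested nuclear genes for respiratory chain subunits, 43 fell and 4 rose, with a median of -0.23. The members were thus close to the respiratory chain genes in counts and median, and no test of a difference between these lists was made. With read totals the cytosolic list had 44 lower and 3 higher and the respiratory chain list 20 lower and 13 higher. Of all genes, 39% were lower and 26.7% higher on the deposited scale, and 26.2% and 37.9% with read totals.

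Base composition and mean level both moved with the fold change. The rank correlation of log2 fold change with GC content was -0.33 over all genes tested and -0.21 over the 77 members. With mean level it was -0.33 over all genes and -0.13 over the members. All points share the same 6 libraries. Median GC content was 49.2% for members and 48.9% for all genes tested, while the median of the mean level was 16.0 and 6.03 FPKM. Libraries deviated from the others of their group with GC content, most of all sh-NC replicate 3. Its rank correlation was -0.82 over the members and -0.65 over all genes. Over the members it was 0.61 and 0.44 for sh-NC replicates 1 and 2. For sh-CLGN replicates 1, 2 and 3 it was -0.24, -0.36 and 0.46. When the members were ordered by GC content into 3 groups, 15 of 26 (57.7%) fell in the group of lowest GC content. In the middle group 13 of 25 (52%) fell, in the highest 17 of 26 (65.4%), and 2 rose in each. Over all genes tested, of any GC content, 39% fell and 26.7% rose. The shares of all genes within each GC range were not counted. Without sh-NC replicate 3, 43 members (55.8%) were lower and 5 (6.49%) higher, beside 39.6% and 27.4% of all genes. Their median was -0.23, and the counts were near those with all libraries, whereas GC correction gave 40 lower and 15 higher. The parts of GC content and mean level in single fold changes were not tested.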

How the data were processed

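RNA-seq of 3 sh-NC and 3 sh-CLGN libraries of Hep-G2 cells was examined. The deposited table holds FPKM for each gene in each library, computed by the authors. The submitters' processing notes name HISAT2 2.0.5, featureCounts and GRCh38, and the strand setting and the handling of reads that overlap several genes are not given in the sources used here. Gene positions equalled GENCODE 29 for all 58735 genes. Deposited FPKM multiplied by gene length gave whole reads for 100% of values within 0.01 of a read, which supplied the reads per library.

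Genes that reached 1 FPKM in 3 libraries or more (13074) were tested with limma 3.58.1 in R 4.3.3, with an intensity trend, on log2(FPKM + 1), two-sided, with Benjamini-Hochberg adjustment over these genes and a threshold of 0.05. Alternatives were a pseudocount of 0.1, no filter, median-ratio, TPM, read-total and quantile scaling, GC correction by lowess (span 0.3), no trend, voom on the recovered reads, a block for the replicate number, and omitting single libraries in turn. The procedure was tested on simulated data. No sequencing intervals are given beside group values, since the spread over 3 libraries includes counting error. Same-numbered libraries did not deviate together (correlations -0.0184, -0.046 and -0.146), so numbers were not taken as pairs.

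The members, gene lists and marker genes were chosen with earlier results of these data known. Members named are the 12 largest falls and rises that were called and separated, those past an absolute log2 fold change of 1, the 5 highest and lowest levels, the stalk, the MRPS18 paralogs, those next to the threshold and the one that failed the filter. From other lists, the mitoribosomal proteins with other names, the rRNAs and the regulators are named in full and the others by up to 3 genes with the smallest adjusted p in each direction. Not every gene chosen this way is reported here. MRPL23, MRPL34, MRPL43, the neighbours of members and the genes with heptamer sites were named after their values were seen. Promoters came from RefSeq (GRCh38.p14) and 3′ UTRs from GENCODE 29. Figures used Python 3.11.15 and matplotlib 3.10.9.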

Additional observations from a re-analysis of the deposited data

Results flagged for a closer look

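Reads also fell on 75 pseudogene rows named after members, which lie outside the comparison. They came to 4.97 ± 1.25 per 1e6 reads in sh-NC, compared with 7.96 ± 1.16 in sh-CLGN (SD, n = 3 each), a ratio of 1.602, from 56, 97 and 80 reads against 134, 132 and 100. This stood out as a signal in data that were not part of the main measurement and was higher than in the control libraries. The groups nearly met, at 6.24 per 1e6 reads in sh-NC replicate 2 and 6.63 in sh-CLGN replicate 3. Genes of any kind with a read numbered 23578 to 23793 per sh-NC library and 26814 to 27006 per sh-CLGN library. Whether the pseudogene rise is particular to these rows was not tested. MRPL45P2 held most of these reads, 33, 63 and 46 in sh-NC against 80, 80 and 59 in sh-CLGN, where MRPL45 itself had 793 to 932 and 1151 to 1332 reads. Whether reads were shared between the gene and its pseudogene was not tested.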

How the results depend on the processing

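Counts of members depended mainly on scaling. The 6 higher calls became 10 with TPM, 16 with read totals, 15 with quantile normalization and 15 with GC correction. They became 17 with the replicate block and GC correction together. Of all genes, 26.7% were higher as reported, and 32.8%, 37.9%, 30.2%, 32.6% and 31.9% in these settings in the same order. The 45 lower calls (58.4%) became 22 (28.6%) with read totals and 26 (33.8%) with quantile normalization. Beside them, 39% of all genes were lower as reported, 26.2% with read totals and 32.5% with quantile normalization. Without the filter 5 members (6.41%) were higher and 36 (46.2%) lower, beside 13.6% and 14.1% of all genes. The median of -0.25 became -0.14, -0.075 and -0.057 with TPM, read totals and quantile normalization, and -0.19 with GC correction, with or without the block. The 2 members past an absolute log2 fold change of 1 became 6 with a pseudocount of 0.1 and with voom. Leaving out single libraries gave 2 to 5 such members (5 without sh-NC replicate 3), 4 to 8 higher calls, 35 to 44 lower calls and medians from -0.27 to -0.22. Of all genes, 23.5% to 27.4% were higher and 34.9% to 39.6% lower in these fits. With the replicate number as a block, 6 members (7.79%) were higher and 39 (50.6%) lower, beside 25.1% and 36.4% of all genes. In that fit 2 members were past a log2 fold change of 1. For all these shifts the cause was not tested. No member called as reported was called in the opposite direction in any setting.

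Of 1309 values of 77 named genes under the alternatives, 1196 kept their direction and side of the threshold, 67 lost the call, 25 gained one and 21 changed sign. The sign changes were MRPL38 (-0.086) and MRPL46 (-0.065) with quantile normalization, MRPL46 without sh-NC replicate 2 (-0.043, and up to 0.068 with other libraries left out), and MRPL10 (0.049 with read totals, 0.12 with quantile normalization, 0.081 with GC correction). MRPL47 gave 0.014 with quantile normalization. MRPL53 (0.0010), MRPS18A (0.030), TFAM (-0.068) and TFB2M (-0.063) changed sign with GC correction, with and without the block, and TFB2M also without sh-NC replicate 3 (-1.71e-05, and up to 0.069 with other libraries left out). GADD45GIP1 gave 0.051 with read totals, 0.14 with quantile normalization and 0.12 with GC correction. Members with the fewest reads, down to 26 in a library, are the least precise.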
